A study of Homo sapiens with 6 samples.

Results

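NR2F1, NR2F2 and NR2F6 encode the NR2F orphan nuclear receptors, also called COUP-TFI, COUP-TFII and EAR2, and the regions described here are the GSX2-bound intervals for which 1 of these 3 genes was the nearest protein-coding gene. GSX2, a homeodomain protein, patterns progenitors of the lateral ganglionic eminence in the ventral forebrain. Each peak was placed by its strongest summit, assigned to the nearest protein-coding gene span of RefSeq (assembly GRCh38.p14, the build the deposited lists call hg38), and merged with peaks of other replicates that overlapped it by at least 1 bp. This gave 50 regions out of 15743 in all, 20 nearest to NR2F1, 29 to NR2F2 and 1 to NR2F6. Replicates 1, 2 and 3 had a peak in 32, 28 and 24 of them.

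The NR2F proteins bind DNA as dimers at repeats of a short nuclear receptor motif and mostly repress transcription. They were named orphan receptors because no ligand was known for them. In the embryonic mouse forebrain Nr2f1 is highest in the caudal and lateral cortex, where it takes part in area patterning. Nr2f2 marks progenitors and migrating interneurons of the caudal ganglionic eminence, the caudal neighbour of the lateral ganglionic eminence. NR2F6 is the most divergent of the 3 and is best known from lymphocytes.

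All samples were of the established human embryonic stem cell line H9 and carried wild-type GSX2 with a 2xFLAG tag under TRE3G, a promoter that doxycycline switches on. They were differentiated toward lateral ganglionic eminence-like progenitors with LDN193189, SB431542 and XAV939, then LDN193189 and SB431542, then IWP2 and Activin A. Every culture also received doxycycline at 100 ng/mL for 12 hours from day 10, and chromatin was precipitated at day 10.5 with the M2 antibody against FLAG in 3 replicates. There is therefore 1 group and no contrast. The tagged protein comes from the transgene, so its level need not be that of the cells' own GSX2. Neither a precipitation without transgene nor the 3 input libraries were analysed here. Peak lists hold no RNA values, so the labelled cell type could not be checked against marker genes.

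Replicates 1, 2 and 3 had 9859, 7471 and 9122 peaks on the autosomes and X. The lists give a fold enrichment for each peak, the authors' own linear ratio over the peak caller's background, and a −log10 q of at least 3.0. Read counts are not part of them, and depth is therefore unknown. A replicate with no peak in a region has no value there, which is not the same as a value of 0. The labels do not say whether the replicates came from separate cultures, and part of the spread between them may be technical.

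The human genome sequence was not at hand, so the DNA of the peaks themselves was not read. RefSeq promoter windows run from 250 bases before an annotated start site to 50 after it, and a start site can lie inside the gene span. They overlapped NR2F regions at 3 places. These 3 windows are shown because their overlapping bases were the only DNA of NR2F regions that could be read. The rest of each window lay outside those regions. The first is the window of NR2F1, which a peak of replicate 2 overlapped by 3 bases (chr5:93582972-93583271, plus strand). The second is the window of the lncRNA gene LOC105379083, 420.5 kb before NR2F1, of which 208 bases lay in a shared region (chr5:93162438-93162737, minus strand). Its start site, 93162487, is inside the gene span (93135785 to 93191189). The third is the window of the lncRNA gene LOC124903582, 414.3 kb before NR2F2, of which 204 bases lay in a shared region (chr15:95911446-95911745, minus strand). Capitals mark TAAT or its reverse complement ATTA, the core that most homeodomain proteins recognise.
NR2F1: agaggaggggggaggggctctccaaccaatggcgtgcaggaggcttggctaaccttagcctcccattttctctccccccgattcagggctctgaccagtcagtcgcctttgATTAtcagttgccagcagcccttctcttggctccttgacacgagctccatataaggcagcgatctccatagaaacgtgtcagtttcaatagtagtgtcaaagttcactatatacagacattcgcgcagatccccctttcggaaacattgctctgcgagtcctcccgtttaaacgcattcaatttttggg
LOC105379083: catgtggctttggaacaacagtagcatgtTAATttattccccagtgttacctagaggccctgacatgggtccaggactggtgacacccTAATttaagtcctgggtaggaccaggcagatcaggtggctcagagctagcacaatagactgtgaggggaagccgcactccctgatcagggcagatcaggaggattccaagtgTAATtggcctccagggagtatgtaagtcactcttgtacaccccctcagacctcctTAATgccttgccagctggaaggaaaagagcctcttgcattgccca
LOC124903582: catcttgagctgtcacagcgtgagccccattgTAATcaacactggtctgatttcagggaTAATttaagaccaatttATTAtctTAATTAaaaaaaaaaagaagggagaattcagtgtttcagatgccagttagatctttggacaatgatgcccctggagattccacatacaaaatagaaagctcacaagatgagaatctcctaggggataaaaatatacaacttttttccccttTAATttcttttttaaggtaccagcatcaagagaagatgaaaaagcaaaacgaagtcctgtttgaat

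The window of LOC124903582 held 6 TAAT cores on the 2 strands, and 5 of them lay inside the shared region. The core nearest to the median summit was 50 bp from it. The same window held the palindrome TAATTA, in which a TAAT and an ATTA overlap, at 84 bases from its 5′ end. The window of LOC105379083 held 4 cores, 3 of them inside the shared region and the nearest 93 bp from the median summit, and no TAATTA. The NR2F1 window held 1 core, 316 bp from the summit of the replicate 2 peak and outside the peak. A second NR2F1 window (chr5:93586849-93587148), at a start site inside the gene (93587099), held 5 cores. Its edge lay 295 bp from the summit of a region of 2 replicates, without overlap. The 2 windows of NR2F2 (chr15:96332315-96332614 and chr15:96333515-96333814) held 0 and 1 cores, and neither overlapped a peak. Both surround start sites inside the gene (96332565 and 96333765), whose span begins at 96326046. The DNA at the beginning of the NR2F2 span was therefore not read. The median summits of the shared regions lay 18 bp outside the window of LOC124903582 and 64 bp outside that of LOC105379083. Of the 3 NR2F genes, 2 matched an entry of the promoter table.

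Of the 114 RefSeq promoter windows that held the summit of a shared region of any gene, 92.1% had a TAAT core, against 50.3% of all 34789 windows. TAATTA was in 23.7% of the windows with a shared summit, against 4.86% of all. Paired cores separated by 7 bases (TAATNNNNNNNTAAT, TAATNNNNNNNATTA, ATTANNNNNNNTAAT or ATTANNNNNNNATTA) were in 11.4%, against 1.62%, and in none of the 6 windows above. All motifs were searched on both strands, and the A+T content was 44.3% in windows with a shared summit, against 42.5% in all. These are descriptions of letters in these windows and not sites of binding.

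Reproducible GSX2 regions at the NR2F genes belonged to NR2F1 and NR2F2, and 11 of the 13 lay more than 100 kb from the gene. A region was called shared where all 3 replicates had a peak. NR2F1 had 5 shared regions and NR2F2 had 8, and NR2F6 had none. Each of the 3 genes was nearest to at least 1 region of some replicate, as were 32.6% of protein-coding genes. Among all 19974 protein-coding genes, 12.3% were nearest to at least 1 shared region, 0.24% to at least 5 and 0.0451%, which is 9 genes, to at least 8. The shared regions were 13 of the 50 NR2F regions (26.0%, 95% Wilson interval 15.9 to 39.6%), against 22.5% of all regions, so the share of reproducible regions was near the background. Another 8 NR2F regions had a peak in 2 replicates and 29 in 1, against 22.7% and 54.9% of all regions. Regions with a peak in at least 2 replicates were 42.0% of the NR2F regions, against 45.1% of all, so the direction of the difference depended on the number of replicates asked for. Wilson intervals cover counting error only. Leaving out replicate 1, 2 or 3, with a shared region then needing both others, left 7, 6 and 6 shared regions at NR2F1, and 9, 10 and 9 at NR2F2.

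The 2 genes stand in long stretches without other protein-coding genes. NR2F1 (chromosome 5, 93583222 to 93594611) was the nearest protein-coding gene over 1.12 Mb and NR2F2 (chromosome 15, 96326046 to 96340263) over 1.75 Mb, whereas NR2F6 (chromosome 19, 17231883 to 17245919) was the nearest over 17.0 kb. The median over all protein-coding genes was 54.9 kb. Shared regions were 4.45 per Mb at NR2F1 and 4.58 per Mb at NR2F2, against 1.17 per Mb over the whole genome. Among the 428 genes that were the nearest over at least 1 Mb, 64.7% had at least 1 shared region, 6.07% had at least 5 and 1.17% had at least 8. The stretch of NR2F6 is too short for its lack of shared regions to set it apart.

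**Figure D1:**
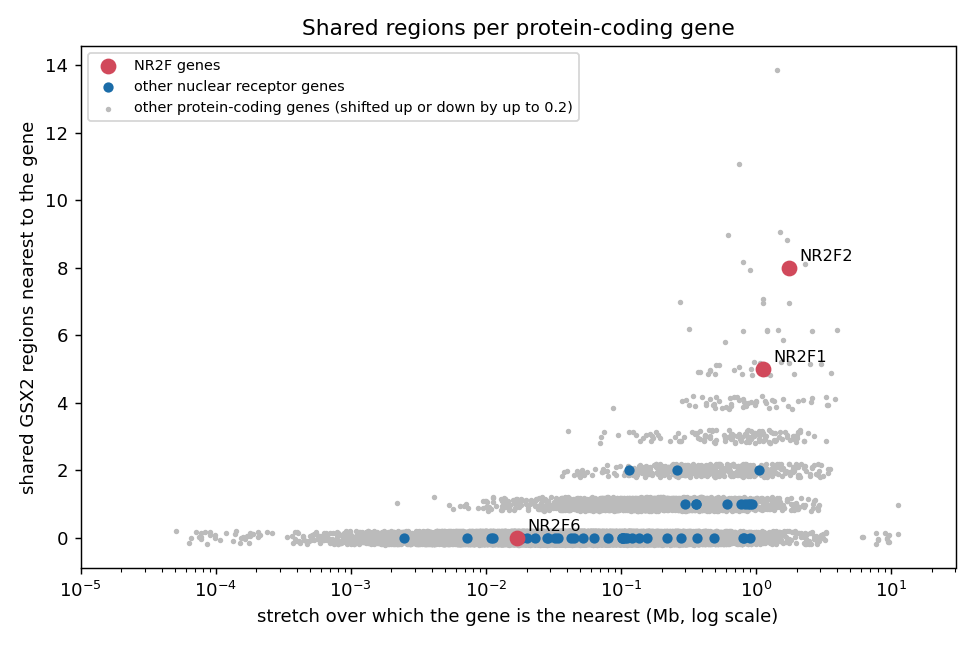
Shared GSX2 regions per protein-coding gene (vertical axis) against the stretch of chromosome over which the gene is the nearest (horizontal axis, Mb, log scale). NR2F2 stands at 8 regions and 1.75 Mb and NR2F1 at 5 regions and 1.12 Mb, above the other 45 nuclear receptor genes, which have at most 2, and NR2F6 stands at 0 regions. Genes whose span is wholly covered by shorter genes have no stretch of their own and are not drawn.

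Most NR2F regions were far from the genes. Of the 50 NR2F regions, 36 lay more than 100 kb from the gene (72.0%), against 20.8% of all regions from their own nearest gene. Of the 13 shared regions, 11 did (84.6%), against 20.6% of all shared regions. NR2F1 and NR2F2 were the nearest over 1.12 and 1.75 Mb, against a median of 54.9 kb over all protein-coding genes. Most positions in these 2 stretches lie more than 100 kb from the gene, so the assignment rule alone makes such distances likely. The shares of 72.0% and 84.6% therefore do not show that the regions kept away from the genes. The shares were not compared with those of genes with stretches of like length. Only 2 of the 50 lay inside the gene span (4.0%), against 50.9% of all regions, and both of those lacked a peak in at least 1 replicate. No shared region lay inside NR2F1 or NR2F2, short genes of 11.4 and 14.2 kb, whereas a protein-coding gene held 51.3% of all shared regions. By the rule, assignment to the nearest gene says nothing of which gene a region acts on.

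**Figure D2:**
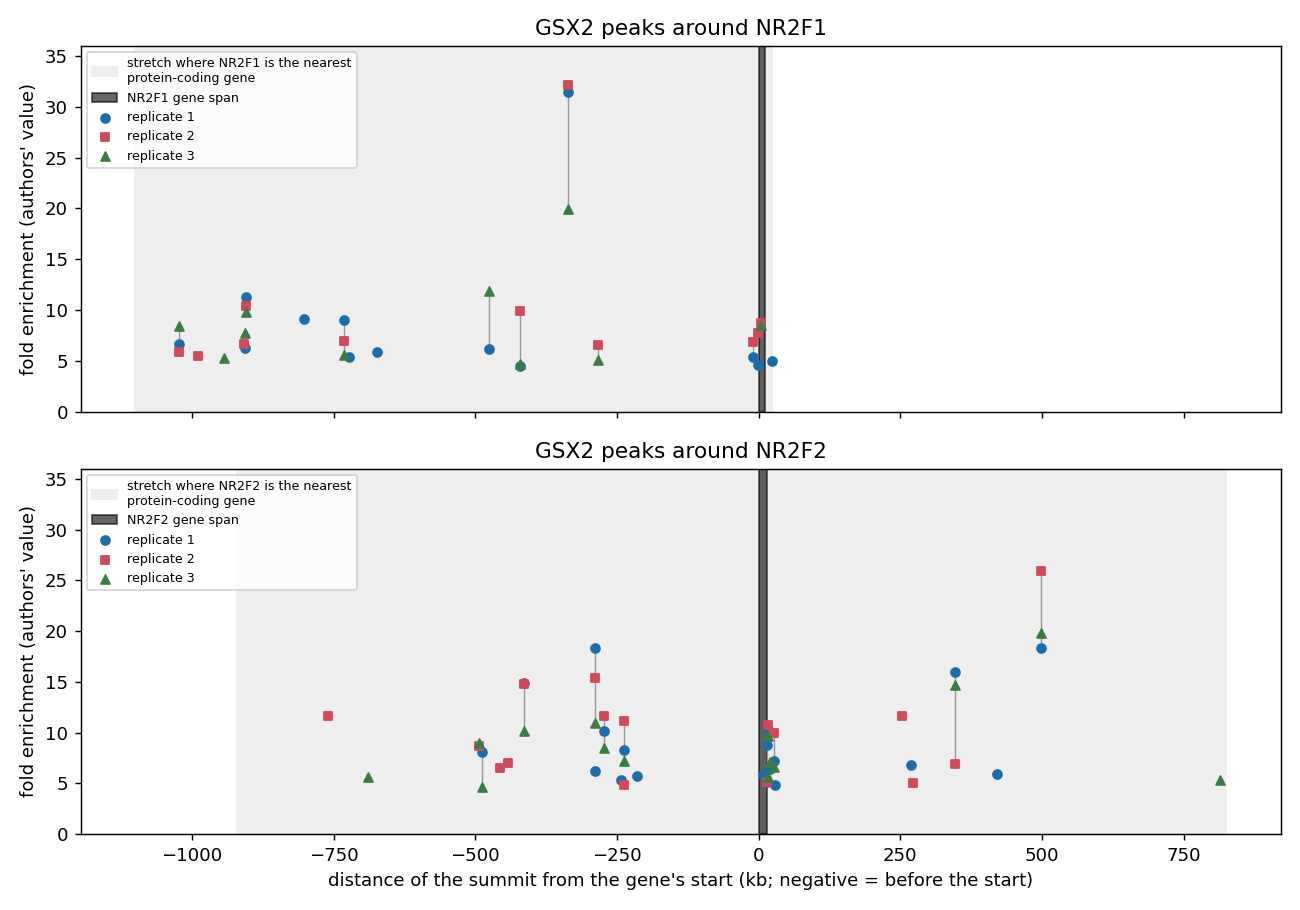
Fold enrichment of each peak in each replicate (vertical axis, the authors' value) against the distance of its summit from the start of NR2F1 (upper panel) or NR2F2 (lower panel) in kb. Thin lines join the replicates of a region. Nearly all NR2F1 peaks lie before the gene, with the strongest at 336.8 kb, while NR2F2 peaks lie on both sides.

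All 5 shared regions of NR2F1 lay before its start, between 336.8 and 1022.1 kb away, as did 18 of its 20 regions. On that side the next protein-coding gene, ARRDC3, is 2199.9 kb away. The strongest region (chromosome 5, 93246161 to 93246650, outside every annotated gene) had 31.5-fold enrichment in replicate 1, 32.1-fold in replicate 2 and 20.0-fold in replicate 3 (mean 27.9 ± 6.84, SD, n = 3). Replicates 1 and 2 were close to each other and replicate 3 was lower. It ranked 27th of 9859, 14th of 7471 and 197th of 9122 peaks by fold enrichment. Its summits fell within 17 bp of each other.

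The other 4 shared regions of NR2F1 were much weaker, with means of 6.39 to 10.5-fold. The region at 904.2 kb (92678865 to 92679247) had 11.3, 10.4 and 9.79-fold, the closest agreement of the 5 (10.5 ± 0.76, SD, n = 3). The region at 1022.1 kb (92560782 to 92561255) had 6.65, 5.88 and 8.45-fold (6.99 ± 1.32). Both lay inside LOC105379082, a lncRNA gene that held 7 of the NR2F1 regions. The region at 730.9 kb (92852151 to 92852475) had 9.002, 6.997 and 5.52-fold (7.17 ± 1.75). The region at 420.5 kb (93162530 to 93162958), whose LOC105379083 window is printed above, had 4.52, 9.91 and 4.73-fold (6.39 ± 3.05). Replicate 2 alone was high there, and the summits were spread over 109 bp, the widest of the 13. Apart from the region at 336.8 kb, the ranges of the NR2F1 regions over replicates overlapped, except that the region at 904.2 kb lay above those at 1022.1 and 730.9 kb in every replicate.

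Close to NR2F1 no region had a peak in all 3 replicates, and values were 4.58 to 8.73-fold. Within 10 kb of the gene, replicate 1 had a peak 1.49 kb before the start (4.58-fold) and replicate 2 a peak 0.46 kb before it (7.75-fold). The third (93586336 to 93586767) lay inside the gene and had 8.73-fold in replicate 2 and 8.49-fold in replicate 3. Its summits were 5 bp apart. The antisense lncRNA gene NR2F1-AS1, which overlaps the start of NR2F1 and extends away from it, held 3 regions and no shared one. Of these, 2 are the peaks just named before the start, and the third lay 10.4 kb from NR2F1, with 5.34 and 6.86-fold in replicates 1 and 2.

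The 8 shared regions of NR2F2 were split evenly, 4 before the gene and 4 beyond its end. The strongest lay 483.1 kb beyond the end (chromosome 15, 96823131 to 96823684, outside every annotated gene), with 18.4-fold enrichment in replicate 1, 25.9-fold in replicate 2 and 19.8-fold in replicate 3 (mean 21.4 ± 3.99, SD, n = 3). Replicate 2 was the highest, and the 3 values ranked 253rd of 9859, 53rd of 7471 and 205th of 9122. The highest value at this region was below the 2 higher values of the strongest NR2F1 region, but replicate 3 gave nearly the same for both (19.8-fold at NR2F2 and 20.0-fold at NR2F1).

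This region had 2 summits in every replicate, and 1.19% of all shared regions had at least 2 in each, and it was the only NR2F region with more than 1 summit. The weaker summit lay 229, 217 and 203 bp from the stronger in replicates 1, 2 and 3. Its fold enrichment was 5.53, 7.14 and 9.61, against 18.4, 25.9 and 19.8 at the stronger summit, so the order of the replicates differed between the 2 summits.

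Before NR2F2, the shared regions lay between 238.1 and 414.3 kb from its start. The region at 289.3 kb (96036536 to 96036928) had 18.3, 15.4 and 10.9-fold (14.9 ± 3.72, SD, n = 3), with summits within 3 bp of each other, the tightest of the 13. The region at 414.3 kb (95911542 to 95912063) had 14.9, 14.8 and 10.1-fold (13.3 ± 2.75), with summits within 7 bp. Its summit was 0.27 kb from LOC124903582, whose window is printed above. The region at 272.1 kb (96053843 to 96054113) had 10.1, 11.7 and 8.54-fold (10.1 ± 1.57), and that at 238.1 kb (96087714 to 96088129) had 8.26, 11.2 and 7.24-fold (8.89 ± 2.04). Replicate 3 was the lowest in all 4. The last 2 and the region at 289.3 kb lay inside the lncRNA gene LOC112268156, which spans 236909 bp and held 7 regions. That at 238.1 kb was also inside the shorter lncRNA gene LOC105369212. The antisense gene NR2F2-AS1 fills 200002 bp from there to the start of NR2F2, which it overlaps, and held no region.

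Beyond NR2F2, the next strongest shared region lay at 332.5 kb (96672563 to 96672963), with 16.0, 6.87 and 14.6-fold (12.5 ± 4.91, SD, n = 3). Here replicate 2 was far below the others, the reverse of its place at 483.1 kb. The remaining 2 were close to the gene. The region 2.02 kb beyond the end (96342086 to 96342771) had 10.3, 10.7 and 9.64-fold, with a mean of 10.2 ± 0.55, the smallest spread of the 13 at a coefficient of variation of 5.39%. It was the only shared region within 10 kb of an NR2F gene, so 1 of the 3 genes had a shared region that close, as did 8.65% of all protein-coding genes. The region at 13.5 kb (96353668 to 96353890), inside the lncRNA gene LOC101927263, had 7.26, 9.93 and 6.62-fold (7.93 ± 1.76).

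**Figure D3:**
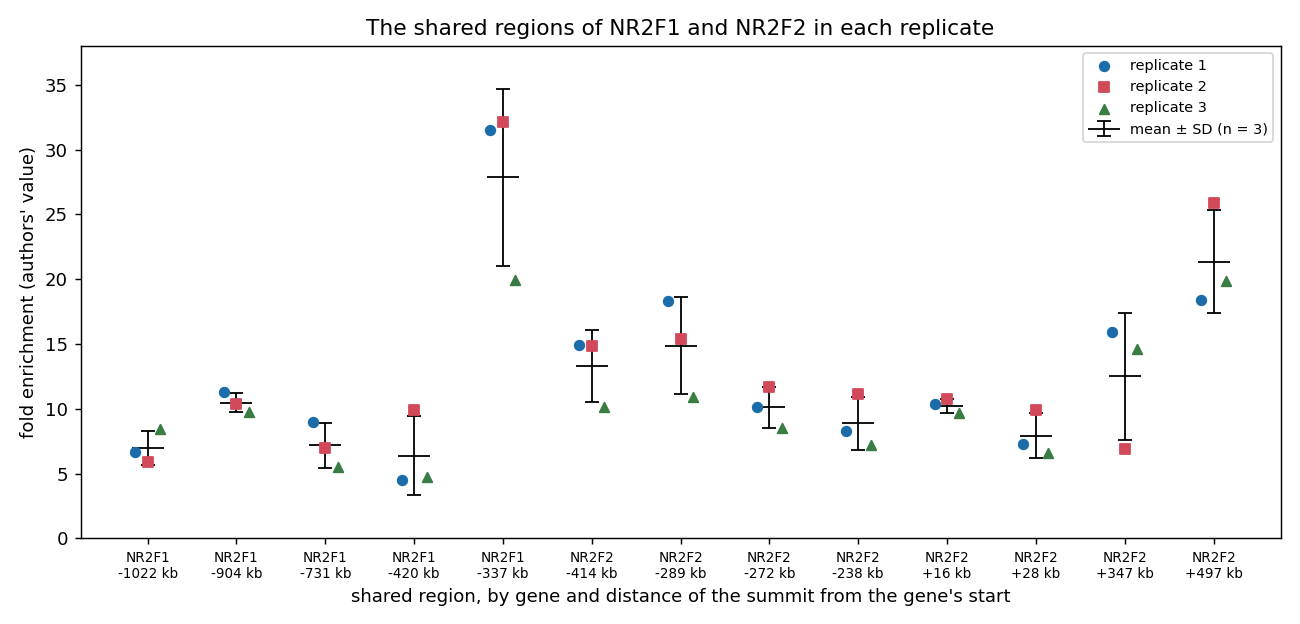
Fold enrichment (vertical axis, the authors' value) of the 13 shared regions in replicates 1, 2 and 3, with the mean and SD, in order of gene and of distance from the gene's start. The NR2F1 region at -337 kb and the NR2F2 region at 497 kb, which is 483.1 kb from the gene's end, stand highest, and replicate 3 is the lowest in 9 of the 13 regions.

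Regions were packed closely just beyond NR2F2. From the peak inside the gene to 14.6 kb beyond its end, 21.9 kb held 8 regions, 2 of them shared, 2 of 2 replicates and 4 of 1. Over the whole series, 0.0318% of regions, which is 5 of 15743, opened a 25 kb window with at least 8 regions. The window at NR2F2 was picked as the densest opened by any NR2F region, and its own count set the threshold of 8. The share is therefore a description, and whether such density is unusual was not tested. Inside the gene replicate 1 had 5.80-fold. Beyond the end came peaks at 0.69 kb (5.11-fold, replicate 1 only), at 1.29 kb (8.78 and 5.17-fold in replicates 1 and 2), the shared region at 2.02 kb, and at 2.76 kb (5.62-fold, replicate 3 only). A region at 5.48 kb had 6.39 and 7.09-fold in replicates 1 and 3, beside SCDAL, a lncRNA gene in whose span the peak at 2.76 kb lay. At 14.6 kb replicate 1 alone had a peak (4.87-fold). Replicate 1 had the most peaks in this cluster, 7, and the shared region at 2.02 kb was the strongest there in every replicate.

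**Figure D4:**
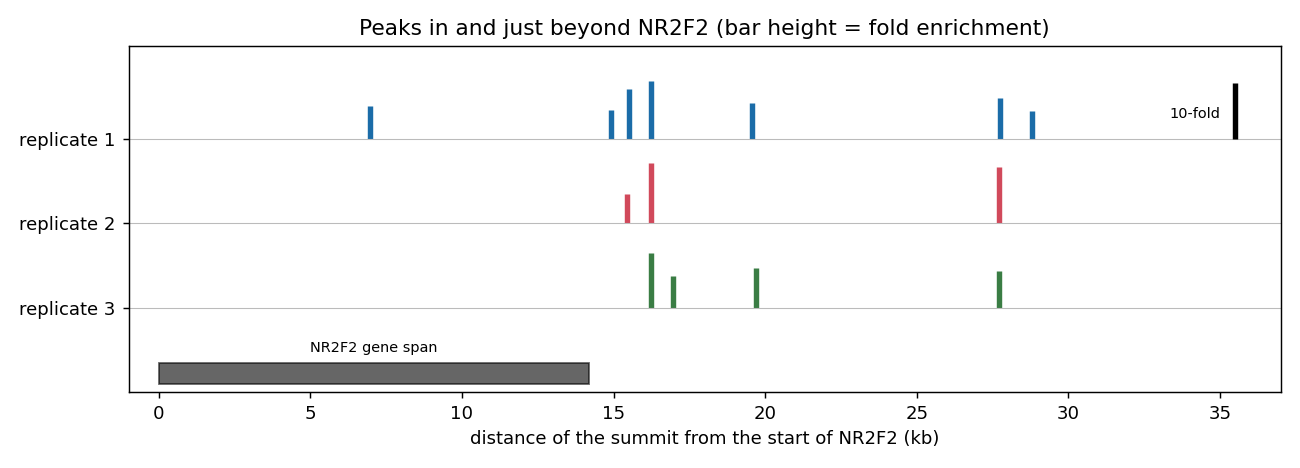
Peaks in and just beyond NR2F2 in each replicate, at the distance of the summit from the gene's start (kb), with bar height showing fold enrichment. The bars at 16.2 kb, 2.02 kb beyond the end, are the tallest in replicates 1, 2 and 3, and those at 27.7 kb are also present in each.

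NR2F6 had 1 region, a peak of replicate 2 lying 0.65 kb from the end of the gene at higher coordinates (chromosome 19, 17246340 to 17246656, 5.09-fold, −log10 q of 3.73). It ranked 6809th of 7471 peaks. Replicates 1 and 3 had no peak there, so no reproducible region was detectable at this gene.

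Across the 37 NR2F regions that were not shared, values were low. The 8 regions of 2 replicates had mean fold enrichments of 5.81 to 9.02, with a median of 6.86, against 7.18 for other regions of 2 replicates. The 29 regions of 1 replicate had 4.58 to 11.6-fold, with a median of 5.76, against 6.21. Of these 29, replicate 1 alone supplied 14, replicate 2 10 and replicate 3 5. The 2 strongest both came from replicate 2, at 760.1 kb before NR2F2 (11.6-fold) and 238.2 kb beyond it (11.6-fold). The 13 shared regions had a median of 10.2-fold, against 9.49 for all other shared regions, and a median coefficient of variation of 22.2%, against 19.5%. Their summits spanned a median of 29 bp over replicates, against 30 bp.

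List by list, NR2F peaks had a lower median than the rest in replicate 1 and a higher one in replicates 2 and 3. The median fold enrichment was 6.52 for NR2F peaks and 7.15 for all other peaks in replicate 1, 8.24 and 7.73 in replicate 2, and 8.09 and 7.48 in replicate 3. The mean difference was 0.166 ± 0.69 (SD, n = 3), with an exact sign-flip permutation p of 1.0, two-sided, where 3 replicates cannot give a p below 0.25. The size and direction rested on the libraries used, since the difference was 0.563 without replicate 1, -0.0071 without replicate 2 and -0.0593 without replicate 3. It was 0.638 with a −log10 q of at least 10.

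A stricter threshold and a wider set of genes both changed the counts. With a −log10 q of at least 10, NR2F1 had 9 regions and 2 shared ones, and NR2F2 13 and 5. When noncoding genes and pseudogenes counted as genes, only 1 region was nearest to NR2F1 and 3 to NR2F2, with no shared region at either. Of the 50 regions, 22 had their summit inside a lncRNA gene and 26 inside no gene of any kind.

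At the edges of these stretches, regions nearest to other genes had values in the range of the NR2F regions. The farthest NR2F1 region before the gene is that at 1022.1 kb. The next peak outside (92429742 to 92430015), nearest to ARRDC3, had 9.93-fold in replicate 1 and 12.0-fold in replicate 3. On the other side the last NR2F1 peak was 11.5 kb beyond the gene (4.96-fold, replicate 1). At NR2F2 the outermost peaks, 760.1 kb before and 800.0 kb beyond the gene, were of 1 replicate each (11.6 and 5.34-fold). The first outside on the high side, nearest to ARRDC4, was shared, with 15.2, 10.4 and 12.3-fold.

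Among the 48 genes of the nuclear receptor superfamily, 14 had a shared region (29.2%), against 12.3% of all protein-coding genes. Without the 3 NR2F genes it was 12 of 45. The median gene had 0 in the list and in the genome. This list and those below were chosen with earlier results of these data known. NR2F1 and NR2F2 had 13 of the 28 shared regions of the list, and the other 15 were spread over 12 genes, none with more than 2. After the 2 NR2F genes the strongest regions were inside RARB, a retinoic acid receptor gene (17.3 ± 6.88-fold, SD, n = 3), and inside NR6A1, the germ cell nuclear factor gene (17.2 ± 4.06-fold). Next came a region 650.7 kb from RORB, a retinoid-related orphan receptor gene (14.0 ± 3.32-fold), and a region 2.87 kb from RXRG, a retinoid X receptor gene (11.2 ± 0.88-fold). NR2E1, the Tailless homologue of neural stem cells, had 1 region of any kind and no shared one. Territories differ in length among these genes and were not matched.

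Genes that act with or around the NR2F proteins were read in the same way, beside the 12.3% of all protein-coding genes with a shared region and with territories not matched. Of 10 genes for partners and corepressors, 3 had a shared region: RXRG with 2, NCOR1, a nuclear receptor corepressor gene (11.1 ± 1.58-fold, inside the gene), and RXRA (10.3 ± 1.26-fold, inside the gene). BCL11B and ZFPM2, whose proteins bind COUP-TFs, had 7 and 3 regions and none shared, and BCL11A had none. Among 9 genes known from interneurons of the caudal and the dorsal lateral eminence, 5 had a shared region, which is 3 of 7 without NR2F1 and NR2F2. Those 3 were SP8 (14.5 ± 2.41-fold, 6.84 kb away), the serotonin receptor gene HTR3A (9.55 ± 1.23-fold, 2.54 kb away) and PROX1 (8.81 ± 1.72-fold, 94.0 kb away). RELN and NPAS1 had 1 region each and none shared, and CALB2 and VIP had no region. Of 6 genes reported to act downstream of COUP-TFs in mouse brain, 5 had a shared region: PAX6 with 3, SPRY1 with 2, and SPRY2, NRP1 and NRP2 with 1 each. The strongest of PAX6, a dorsal forebrain homeodomain gene, had 18.8 ± 6.07-fold (inside the gene). SPRY2 and SPRY1, which encode antagonists of growth factor receptor signalling, had 18.5 ± 0.77-fold (20.5 kb away) and 8.02 ± 2.35-fold (453.3 kb away). RND2 had no region. Territories in this list ran from 14.4 kb at RND2 to 2163.1 kb at SPRY2. NRP1 and NRP2, which encode neuropilins that guide migrating interneurons, had 7.58 ± 1.31-fold (150.4 kb away) and 11.8 ± 4.97-fold (inside the gene).

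The genes most like each member were found by the Euclidean distance between log2 territory length, log2 of 1 plus the shared regions, and log2 mean fold enrichment of the strongest shared region, over 3 replicates. The nearest to NR2F1 was DIPK2A (5 shared regions over 1.12 Mb, 23.8 ± 4.93-fold, distance 0.23), followed by NBEA and by ARRDC3, its own neighbour (distances 0.43 and 0.50). The nearest to NR2F2 was ERBB4 (7 shared regions over 1.74 Mb, 21.0 ± 5.08-fold, distance 0.17), followed by ARRDC3 and CADM1 (distances 0.64 each).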

How the data were processed

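The build was hg38, and MACS3, Bowtie2, Trim Galore, deepTools and SAMtools are named, per the submitters' processing notes. Their versions, their settings and any control for the peaks were not given in the sources used here. Each replicate's deposited peak list holds a fold enrichment (a linear ratio), −log10 p-values and −log10 q-values. The deposited score, a scaled −log10 q, was left unused. No −log10 q was below 3.0, which corresponds to a q-value of 0.001.

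Lines of the same interval were reduced to the summit of highest fold enrichment, and intervals on other sequences than the autosomes and X (77, 64 and 82) were dropped. A summit inside several gene spans went to the shortest. A gene's territory is the stretch over which it is the nearest of 19974 protein-coding genes. The members and gene lists were chosen with earlier results of these data known. All NR2F genes, neighbouring genes, genes holding their shared regions, up to 6 genes per list by strongest shared region, and 3 genes by likeness were named. NR2E1, BCL11A, BCL11B, ZFPM2, RND2, RELN, NPAS1, CALB2 and VIP were named after their values were seen. Merging and assignment were tested on simulated peaks. The alternatives were a stricter q-value, other overlaps, other gene assignments and leaving out each replicate. Python 3.11.15, numpy 2.4.6 and scipy 1.17.1 were used. Some results are not reported here.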

Additional observations from a re-analysis of the deposited data

How the results depend on the processing

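No paired analysis was possible because there is 1 group with values. The planned search for homeodomain cores in windows of 300 and 100 bp around summits was not run for want of a genome. Merging by summits within 200 bp, by an overlap of 50% of the shorter peak, by nearest gene end or by interval midpoint left every count within 1.5 times and every other value on its side. With a −log10 q of at least 10, regions numbered 9, 13 and 0 at NR2F1, NR2F2 and NR2F6, shared regions 2 and 5 at NR2F1 and NR2F2, and the median difference was 0.638. With genes of any type, regions numbered 1 and 3 at NR2F1 and NR2F2, shared regions 0 and 0, the share found in all replicates was 0.0%, and the median difference to other peaks was -0.961. Calling regions of at least 2 replicates shared gave 9 at NR2F1 and 12 at NR2F2, and a share of 42.0%, against 45.1% of all regions. The median over summit lines made the strongest NR2F2 region 14.9-fold, a different region, because the weaker summit then lowers the region at 483.1 kb. Leaving out a replicate gave shares of 33.3 to 44.4%, against 35.8 to 37.7% of all regions, since a shared region then needs only 2 peaks. It gave median differences of -0.0593 to 0.563 (-0.0071 without replicate 2), 0 to 1 regions at NR2F6, 14 to 18 and 21 to 26 regions at NR2F1 and NR2F2, and strongest regions of 25.7 to 31.8-fold and 19.1 to 22.9-fold. Unknown depth limits all statements on missing peaks.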

Other observations

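The deserts around NR2F1 and NR2F2 are bordered by a pair of related arrestin-domain genes, ARRDC3 beside NR2F1 and ARRDC4 beside NR2F2. ARRDC3 was nearest to 6 shared regions, the strongest 75.5 kb away (20.7 ± 3.21-fold, SD, n = 3), and ARRDC4 to 2, the strongest 231.4 kb away (12.7 ± 2.44-fold). The gap between ARRDC3 and NR2F1 held 7 shared regions in 2199.9 kb, 5 of them nearest to NR2F1. The gap between MCTP2 and NR2F2 held 4 in 1842.1 kb, all nearest to NR2F2, and the gap between NR2F2 and ARRDC4 held 6 in 1620.4 kb, 4 of them nearest to NR2F2. These are 3.18, 2.17 and 3.70 shared regions per Mb, against 1.17 over the genome. Around NR2F6, the neighbours OCEL1 and USHBP1 had no region in any replicate. These gaps were chosen after the values were seen.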
